A study of Saccharomyces cerevisiae with 8 samples.

Results

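P-type ATPases are membrane pumps that pass a phosphate from ATP onto one of their own aspartates and use the resulting change of shape to move an ion or a lipid. Budding yeast has calcium pumps that fill the vacuole and the Golgi, a proton pump that energises the plasma membrane, and flippases that keep aminophospholipids on the cytosolic face of Golgi, endosome and plasma membranes. Spf1, of the endoplasmic reticulum, removes misplaced transmembrane helices from the membrane, and its loss disturbs calcium balance and protein folding in that compartment.

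The 10 genes described here are SPF1, PMC1, PMR1, PMA1, PMA2, DRS2, NEO1, DNF1, DNF2 and DNF3, which are 10 of the 6547 features of the table. SPF1 and PMC1 were chosen because their levels moved in opposite directions in the 2 strains between G1 and hydroxyurea, so that contrast is given for them as a description, with no test. The other 8 were added as family members for comparison. Messenger RNA of Saccharomyces cerevisiae was sequenced from a strain with the genotype mec1 (WFA73) and from a wild-type strain (WT, WFA72). Mec1 is the yeast relative of the checkpoint kinase ATR, and the labels do not give the kind of mec1 allele or any other allele of either strain. Samples were taken while alpha factor, a mating pheromone, held the cells in G1 (G1), then 1 h after release into 200 mM of the ribonucleotide reductase inhibitor hydroxyurea (HU), and at 30 min (R30) and 60 min (R60) of growth in medium free of the drug. Each strain and time has 1 library, so no difference between single libraries has a replicate check.

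The values are RPM, read numbers scaled to the same total in each library and averaged over the windows that touch a gene, and they rest on 1596132 (WT HU) to 3935979 (mec1 G1) reads a library. A gene's windows are its body and stretches of 1000 bp around genes, so reads of close neighbours count towards it. The pheromone precursor gene of a cells, MFA1, was at 773 RPM in mec1 G1 and 989 RPM in WT G1, while MF(ALPHA)1, its counterpart in alpha cells, was at 5.13 RPM in mec1 G1 and 8.69 RPM in WT G1. HUG1, a checkpoint-induced inhibitor of ribonucleotide reductase, was at 7.67 RPM in mec1 G1 and 76.6 RPM in WT G1. It was at 37.7 RPM in mec1 HU and 445 RPM in WT HU. HUG1 thus already differed between the strains in G1, and HU minus G1 was 2.16 in mec1 and 2.52 in WT on the log2 scale. The ribonucleotide reductase genes RNR2 and RNR4 changed less evenly between the strains. Their HU minus G1 difference was 0.77 in mec1 and 3.53 in WT for RNR2, and 0.55 in mec1 and 3.10 in WT for RNR4. The MEC1 feature was at 76.6 to 124 RPM in mec1 libraries and at 35.7 to 90.3 RPM in WT libraries, and without knowledge of the allele this level does not check the labels. In these bulk cultures, a change in the share of cells in one cell cycle stage and a change in RNA per cell cannot be told apart.

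The promoters of SPF1, PMC1 and PMA1 are shown because these 3 of the 10 genes varied most over the libraries. Each runs from 250 bases before the start codon to 50 bases from its first base onwards, 5′ to 3′ on the gene's strand, from RefSeq R64. Capitals mark the start codon ATG and any match, on either strand, to GNGGCTCA or GNGGCGCA (bound by Crz1, the transcription factor that calcineurin activates), CAGCGTG (the unfolded protein response element), AGGGG (the stress response element) or ACGCGT (the MluI cell cycle box). The SPF1 promoter lies on the plus strand at chrV:90008-90307, the PMC1 promoter on the plus strand at chrVII:485671-485970 and the PMA1 promoter on the minus strand at chrVII:482617-482916.
SPF1: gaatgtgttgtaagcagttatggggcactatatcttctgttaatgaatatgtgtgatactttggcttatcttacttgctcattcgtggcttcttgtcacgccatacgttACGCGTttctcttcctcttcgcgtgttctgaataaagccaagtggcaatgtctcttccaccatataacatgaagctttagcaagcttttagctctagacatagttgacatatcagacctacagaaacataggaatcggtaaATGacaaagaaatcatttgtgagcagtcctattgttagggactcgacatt
PMC1: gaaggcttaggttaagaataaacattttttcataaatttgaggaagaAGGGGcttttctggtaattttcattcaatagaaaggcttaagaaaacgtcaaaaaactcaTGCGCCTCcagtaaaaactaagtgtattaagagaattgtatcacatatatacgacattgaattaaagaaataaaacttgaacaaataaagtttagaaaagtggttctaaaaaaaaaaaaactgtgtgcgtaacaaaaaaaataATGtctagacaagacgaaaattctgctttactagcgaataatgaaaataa
PMA1: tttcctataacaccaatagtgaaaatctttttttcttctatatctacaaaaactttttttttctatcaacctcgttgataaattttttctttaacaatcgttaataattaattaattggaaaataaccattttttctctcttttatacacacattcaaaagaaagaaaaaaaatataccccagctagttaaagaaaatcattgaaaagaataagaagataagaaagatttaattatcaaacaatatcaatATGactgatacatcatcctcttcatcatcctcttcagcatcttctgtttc

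The PMC1 promoter held GNGGCGCA on the reverse strand, with its leftmost base 143 bases before the start codon, and AGGGG 203 bases before it. These matches do not overlap. Either Crz1 motif occurred in 114 of 6001 promoters of the same length (1.9%), and among the 10 genes in PMC1. The SPF1 promoter held ACGCGT 141 bases before the start codon, a match found in 184 of the 6001 promoters (3.07%) and in no other of the 10 genes. AGGGG was in 1297 of the promoters (21.6%) and in 4 of the 10 genes, PMC1, PMA2, DRS2 and NEO1. CAGCGTG occurred in 70 promoters (1.17%) and in none of the 10, and the PMA1 window held no match to any of these letters.

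SPF1 (YEL031W, chromosome V, 90258 to 93905 in R64, plus strand) differed most among the 10 genes. At G1, HU, R30 and R60 it was at 141, 360, 295 and 251 RPM in mec1 libraries, against 129, 57.3, 156 and 152 RPM in WT libraries. The mec1 libraries after release from G1 were the 3 highest of the 8, and WT HU was the lowest by far. The level in mec1 HU was 6.28 times that in WT HU. Ordered from high to low, mec1 HU, mec1 R30 and mec1 R60 each lay above the next library beyond counting error. WT R30, WT R60, mec1 G1 and WT G1 followed, and no neighbours among these 4 differed beyond it. WT HU lay below WT G1 by 1.15 on the log2 scale (95% counting interval 0.82 to 1.49). Such intervals treat a gene's mean reads per window as its count, and they hold no error other than that of counting.

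PMC1 (YGL006W, chromosome VII, 485921 to 489442, plus strand) encodes the calcium pump of the vacuole. At G1, HU, R30 and R60 it was at 47.8, 81.4, 72.2 and 66.3 RPM in mec1 libraries, against 56.7, 21.6, 42.2 and 36.3 RPM in WT libraries. It was again highest in mec1 HU and lowest in WT HU, with a ratio of 3.78 between them. The order of PMC1 was less resolved than that of SPF1. Of the 7 steps from each library to the next lower one, the last, between WT R60 and WT HU, had a counting interval above 0 (0.73, 0.18 to 1.28). WT HU held 34.4 PMC1 reads per window, the fewest of any of the 10 genes in any library.

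PMA1 (YGL008C, chromosome VII, 479910 to 482666, minus strand) encodes the proton pump that sets the plasma membrane potential. At G1, HU, R30 and R60 it was at 1036, 1775, 1777 and 1311 RPM in mec1 libraries, against 1012, 837, 2331 and 1311 RPM in WT libraries. The strains did not differ beyond counting error in G1 or at R60, but mec1 reached its higher level in HU and stayed there at R30, whereas WT was lowest in HU and highest at R30. The ratio of the highest to the lowest library was 2.79.

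**Figure D1:**
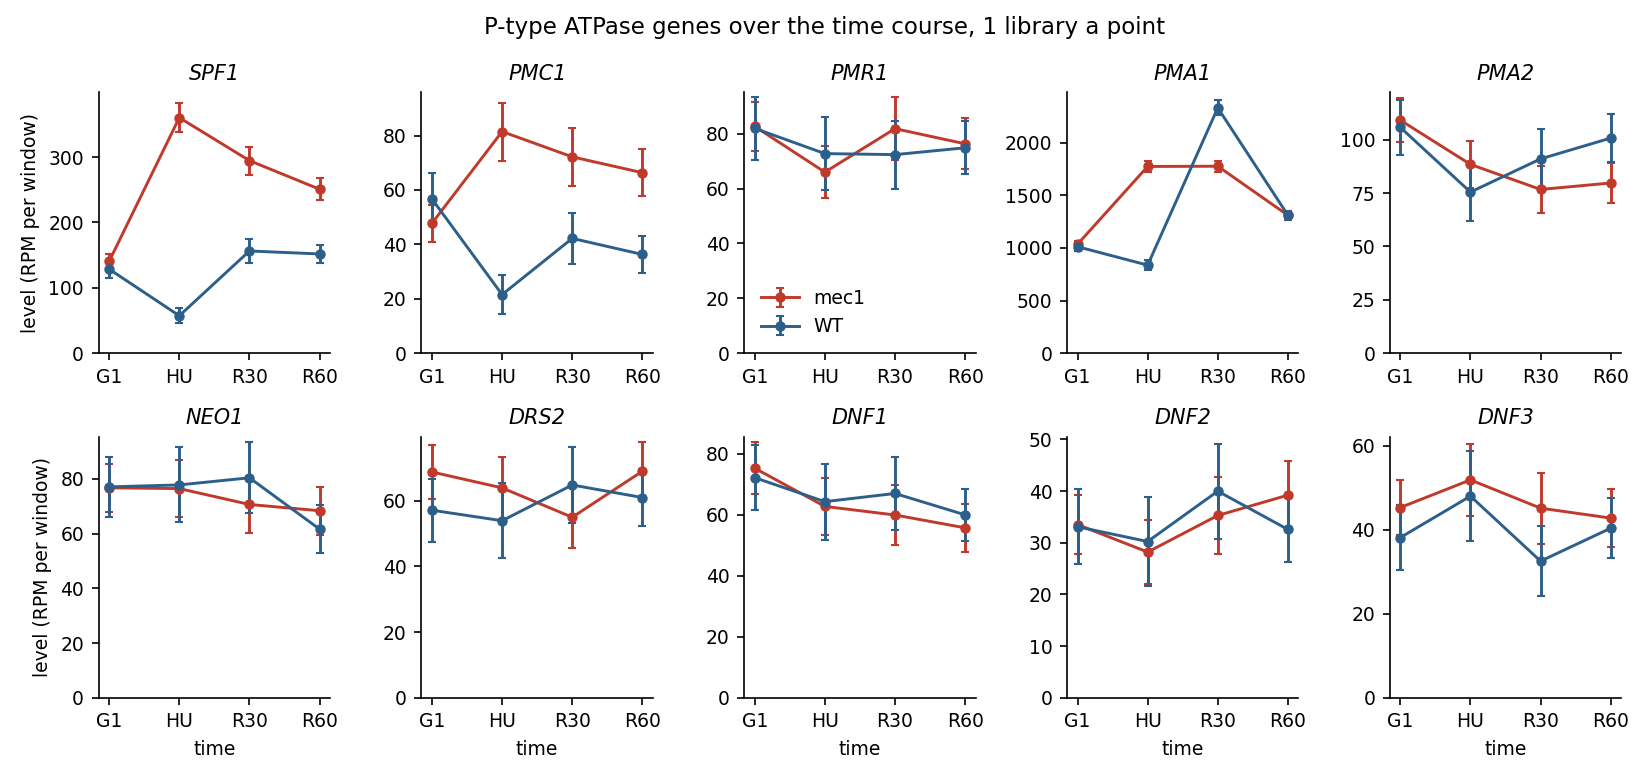
Level of each P-type ATPase gene (y axis, RPM per window, from 0, scales differ between panels) at the 4 times (x axis) in mec1 (red) and WT (blue), with 95% counting intervals. SPF1 and PMC1 separate by strain from HU on, PMA1 crosses between HU and R30, and the lines of the other 7 genes lie close together.

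The other 7 genes varied by 1.25-fold (PMR1) to 1.59-fold (DNF3) between their highest and lowest library. PMR1 (YGL167C, chromosome VII, 187616 to 190468), the calcium and manganese pump of the Golgi, was at 82.7, 66.0, 81.9 and 76.3 RPM in mec1 and at 81.9, 72.8, 72.4 and 74.9 RPM in WT at G1, HU, R30 and R60. Its range over the 8 libraries was wider than that of 5.87% of the 6504 features tested, against 98.0% for SPF1, 94.2% for PMC1 and 88.4% for PMA1. The windows of the calcium pump genes PMC1 and PMR1 thus showed unlike ranges in the same libraries. PMA2 (YPL036W, chromosome XVI, 482843 to 485686), the minor isoform of the proton pump, was at 109, 88.4, 76.7 and 79.7 RPM in mec1 and at 106, 75.4, 91.0 and 101 RPM in WT. PMA1 and PMA2 are close paralogs, and how reads matching both were placed is not given in the sources used here, so the split between them is uncertain.

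The values of the flippase genes, as deposited, spanned 1.28-fold (DRS2) to 1.59-fold (DNF3). DRS2 (YAL026C, chromosome I, 95630 to 99697), the aminophospholipid flippase of the trans-Golgi network, was at 54.9 to 68.9 RPM in mec1 and 53.9 to 64.8 RPM in WT. NEO1 (YIL048W, chromosome IX, 261437 to 264892), the essential flippase of Golgi and endosomes, was at 68.4 to 76.7 RPM in mec1 and 61.6 to 80.4 RPM in WT. DNF1 (YER166W, chromosome V, 512744 to 517459) and DNF2 (YDR093W, chromosome IV, 631282 to 636120) encode the paralogous flippases of the plasma membrane. DNF1 was at 55.8 to 75.3 RPM in mec1 and 60.0 to 72.2 RPM in WT, and DNF2 at 28.2 to 39.2 RPM in mec1 and 30.2 to 40.0 RPM in WT. DNF3 (YMR162C, chromosome XIII, 578951 to 583921), a flippase of the trans-Golgi network, was at 42.8 to 51.9 RPM in mec1 and 32.5 to 48.0 RPM in WT. The strains' ranges overlapped for each of these 5 genes.

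Reads of neighbouring genes enter the values to different degrees. When the reads were divided among gene bodies by non-negative least squares, the gene's own body gave 77.6% to 91.7% of the SPF1 value, 52.4% to 78.8% of the PMC1 value and 98.9% to 99.1% of the PMA1 value over the 8 libraries. It gave 51.2% or more of the value in every library for 6 of the 10 genes, the other 3 of these being PMA2, DNF2 and DNF3. The share was 12.6% to 28.5% for PMR1, 27.3% to 46.6% for DRS2 and 30.6% to 68.9% for NEO1, and the division left DNF1 at 0 in all 8 libraries. The divided values had wider ranges, of 21.7 to 29.2 in mec1 and 16.0 to 32.1 in WT for PMR1, 20.8 to 34.2 in mec1 and 16.6 to 27.7 in WT for DRS2, and 25.6 to 51.2 in mec1 and 35.5 to 43.3 in WT for NEO1, in RPM per 1000 bp. The narrow ranges of PMR1, DRS2, NEO1 and DNF1 are therefore those of their windows and cannot be assigned to the genes alone.

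Whether the pumps changed between G1 and HU was compared within each strain. No library was taken after release from alpha factor without HU. Here and below, HU minus G1 therefore spans loss of the pheromone, cell cycle progress and the drug, which cannot be told apart. SPF1 was higher in HU than in G1 by 1.35 on the log2 scale in mec1 (1.20 to 1.5), and differed by −1.15 in WT (−1.49 to −0.82). PMC1 differed by 0.76 in mec1 (0.48 to 1.04) and by −1.35 in WT (−1.89 to −0.82). These signs are what chose the pair. PMA1, which was not chosen for its values, differed by 0.78 in mec1 (0.72 to 0.84) and by −0.27 in WT (−0.37 to −0.18), so its signs were opposite as well. Past a difference of 1 on the log2 scale (2-fold), SPF1 was the 1 gene of the 10 that was higher in mec1 HU, beside 4.7% of all features, and SPF1 and PMC1 were the 2 that were lower in WT HU, beside 3.11% of all features. Nothing is read from these counts, since the rule used these libraries.

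Of the 6504 features, 1 was at least 2-fold lower in HU than in G1 in WT and at least 2-fold higher in mec1, and it was SPF1. With 0.75 on the log2 scale each way the number was 16, among them SPF1 and PMC1, and with 0.5 it was 88 (1.35%). The mec1 change minus the WT change was 2.50 for SPF1 (2.13 to 2.87), 2.11 for PMC1 (1.5 to 2.72) and 1.05 for PMA1 (0.94 to 1.16). These are ranks 2, 16 and 284 of 6504 from the top. SPF1 and PMC1 were chosen on this contrast, so nothing is read from their places in these counts and ranks. In the other 7 genes the mec1 change minus the WT change lay between −0.15 (PMR1) and 0.18 (PMA2). Each of these 7 counting intervals held 0. Divided among gene bodies, HU minus G1 was 0.14 in mec1 and 0.96 in WT for PMR1, and 0.67 and −0.16 for NEO1. It was −0.76 and −0.23 for DNF2, and 0.34 and 0.61 for DRS2. PMA2 stood at −0.28 and −0.47 and DNF3 at 0.19 and 0.35, while the division left DNF1 at 0. The closeness of the strains in PMR1 and NEO1 is therefore that of their windows.

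**Figure D2:**
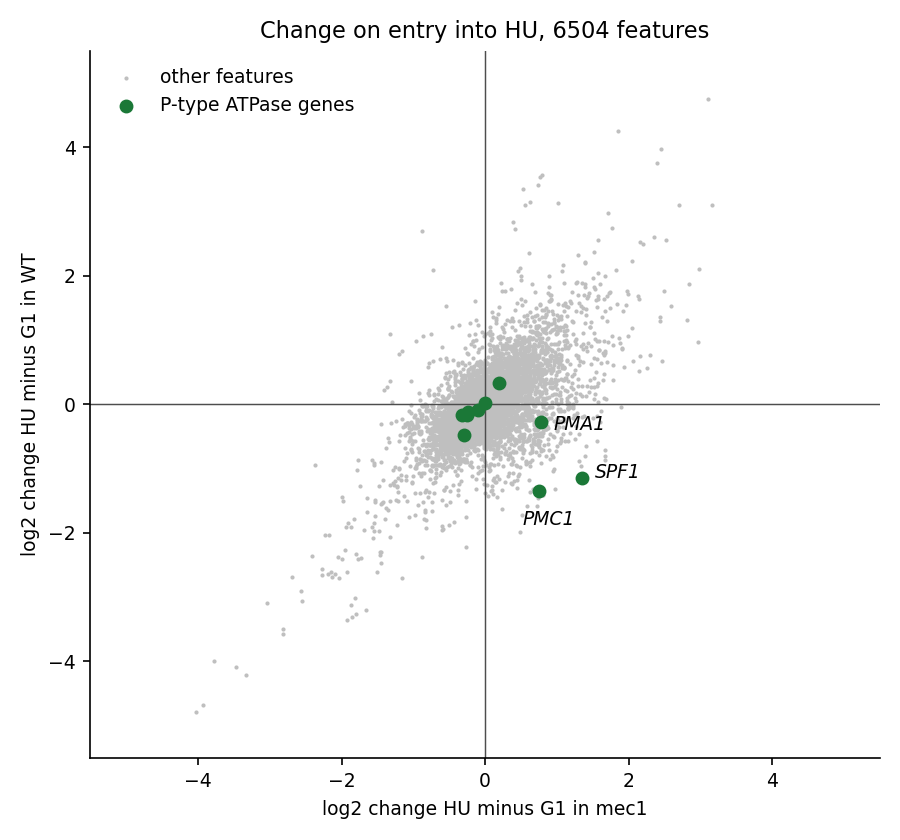
Log2 change from G1 to HU in mec1 (x axis) and in WT (y axis) for 6504 features (grey) and the 10 P-type ATPase genes (green). SPF1 (1.35, −1.15), PMC1 (0.76, −1.35) and PMA1 (0.78, −0.27) lie in the lower right field, where features were higher in mec1 HU and lower in WT HU, and the other 7 lie near the centre.

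The fit over both strains (limma, strain and time as additive terms, Benjamini-Hochberg adjusted p under 0.05) asks for a change shared by the strains. It called HU against G1 for 0 of the 8 genes not chosen on values, beside 9.09% of all 6504 features, and 0 of the 8 had an unadjusted p under 0.05. PMA2, at −0.39 (SE 0.17), came nearest with an adjusted p of 0.16. PMA2 was lower in HU than in G1 in both strains, by −0.30 in mec1 (−0.53 to −0.07) and by −0.48 in WT (−0.79 to −0.17). With 1 library per strain and time, these p-values measure how evenly the strains moved and not the spread between cultures.

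The neighbours of PMA1 moved with it between G1 and HU, YGL007C-A by 0.76 in mec1 and −0.28 in WT, and YGL007W by 0.77 and −0.26. Some neighbours of SPF1 and PMC1 differed less than these genes did. MCM3, a subunit of the replicative helicase that lies 405 bp from SPF1, differed between HU and G1 by 0.10 in mec1 and −0.57 in WT. COG7, a Golgi tethering subunit 265 bp from PMC1, differed by 0.21 in mec1 and −0.58 in WT. Other neighbours followed the gene whose windows they share: ECM10, 738 bp from SPF1, differed by 1.00 in mec1 and −0.65 in WT, and YGL006W-A, 386 bp from PMC1, by 0.98 in mec1 and −1.32 in WT. Divided among gene bodies, the HU minus G1 difference was 1.46 in mec1 and −1.23 in WT for SPF1, 0.92 and −1.75 for PMC1, and 0.78 and −0.27 for PMA1. The opposite directions of all 3 genes were thus also present in the divided values. The division was not steady for every neighbour, since it turned the signs of ECM10, to −2.91 in mec1 and 3.54 in WT. It gave −0.06 and −0.54 for MCM3, 0.09 and −0.59 for COG7, and 1.17 and −1.23 for YGL006W-A. Depending on the library, it left 10.1% to 11.2% of features at 0. PMA1 and PMC1 lie 3253 bp apart on chromosome VII. Of 283 features between 3000 and 4000 bp, as SPF1 and PMC1 are, 2.83% were at least 2-fold higher in mec1 HU than in WT HU. Their median difference was −0.02. The share was 5.51% of 798 features between 2000 and 3000 bp, as PMA1 is, and 6.73% of 104 features of 5000 bp or more. The part of gene length was not tested.

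**Figure D3:**
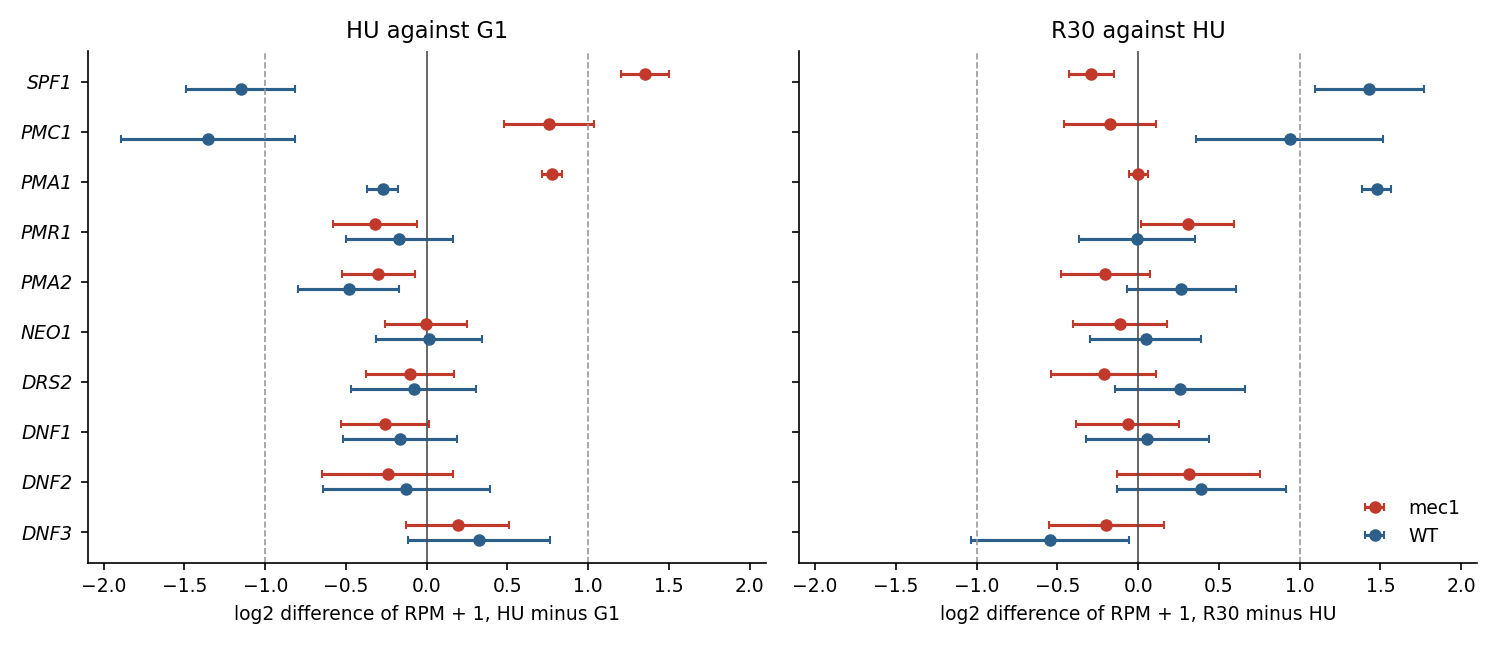
Log2 differences of RPM + 1 for the 10 genes (rows), HU minus G1 on the left and R30 minus HU on the right, in mec1 (red) and WT (blue), with 95% counting intervals and dashed lines at 2-fold. SPF1, PMC1 and PMA1 separate by strain in both panels, while the intervals of the other 7 genes overlap between strains.

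In the 30 min after the drug was removed, SPF1, PMC1 and PMA1 had the largest differences of the 10 genes in WT. R30 minus HU was −0.29 in mec1 (−0.43 to −0.15) and 1.43 in WT (1.09 to 1.77) for SPF1, and −0.17 in mec1 (−0.46 to 0.11) and 0.94 in WT (0.36 to 1.52) for PMC1. For PMA1 it was 0.00 in mec1 (−0.06 to 0.06) and 1.48 in WT (1.39 to 1.57). DNF3 came next, at −0.20 in mec1 (−0.55 to 0.16) and −0.55 in WT (−1.04 to −0.06). SPF1 and PMA1 were thus 2 of the 10 genes past 2-fold in WT, beside 1.52% of all features, and 0 of the 10 were past it in mec1, beside 1.34%. These differences share the HU libraries with the choice of SPF1 and PMC1. The mec1 change minus the WT change was −1.72 for SPF1 (−2.09 to −1.35), −1.11 for PMC1 (−1.76 to −0.46) and −1.47 for PMA1 (−1.58 to −1.37). Of the other 7 genes, PMA2 had an interval without 0, at −0.47 (−0.91 to −0.03), and the other 6 intervals held 0. The limma fit over both strains called 0 of the 8 genes not chosen on values, beside 0.861% of all features.

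Between R30 and R60, PMA1 differed most. R60 minus R30 was −0.44 in mec1 (−0.50 to −0.38) and −0.83 in WT (−0.89 to −0.77). SPF1 differed by −0.23 in mec1 (−0.37 to −0.09) and by −0.04 in WT (−0.25 to 0.17). The limma fit called 0 of the 10 genes and 0 of the 6504 features, which is 0% of them, while 261 features had an unadjusted p under 0.05 and 0 of the 10 genes did. At R60 both strains had PMA1 above its G1 level, by 0.34 in mec1 (0.28 to 0.40) and by 0.37 in WT (0.30 to 0.45). SPF1 stood above its G1 level by 0.83 in mec1 (0.68 to 0.98) and by 0.24 in WT (0.03 to 0.44). PMC1 stood above G1 by 0.47 in mec1 (0.19 to 0.74) and differed by −0.63 in WT (−0.99 to −0.27).

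The strains were then compared at each time. In G1, the mec1 minus WT difference was 0.13 for SPF1 (−0.07 to 0.33), −0.24 for PMC1 (−0.56 to 0.08) and 0.03 for PMA1 (−0.04 to 0.11), and the counting intervals of all 10 genes held 0. In G1, 0 of the 10 genes were past 2-fold, beside 0.4% of all features higher and 0.231% lower in mec1. In HU it was 2.63 for SPF1 (2.32 to 2.94), 1.87 for PMC1 (1.35 to 2.39) and 1.08 for PMA1 (1.00 to 1.17). These 3 of the 10 genes were past 2-fold, beside 5.18% of all features. Nothing is read from this count, since SPF1 and PMC1 were chosen on the same HU libraries and PMA1 fell short of 2-fold, at 0.95, with each library centred on its median. The other 7 lay between −0.14 (PMR1) and 0.24 (DRS2). At R30 the difference was 0.91 for SPF1 (0.71 to 1.11), 0.76 for PMC1 (0.37 to 1.15) and −0.39 for PMA1 (−0.45 to −0.33). At R60 it was 0.72 (0.56 to 0.88), 0.85 (0.53 to 1.18) and 0.00 (−0.06 to 0.06) for the same genes. Past 2-fold were 0 of the 10 genes at R30 and 0 at R60, beside 3.97% and 3.51% of all features higher in mec1. At both recovery times SPF1 and PMC1 were higher in mec1 beyond counting error, and PMA1 was not. Among the other 7, DNF3 at R30 (0.46, 0.005 to 0.92) and PMA2 at R60 (−0.33, −0.57 to −0.10) had intervals without 0.

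The recovery libraries did not enter the choice of SPF1 and PMC1, and a fit over those 4 libraries was added after the data had been seen. They follow the HU time on which the pair was chosen, and a strain difference in HU can carry over into them. The fit is therefore no independent test of the pair. SPF1 was higher in mec1 by 0.81 (SE 0.10, limma adjusted p = 0.0134) and PMC1 by 0.81 (SE 0.12, adjusted p = 0.0172), each at both times. The p-values measure how even the difference was between R30 and R60, and not the spread between cultures. Of the 10 genes, 2 were called, beside 19.9% of all features, and both were higher in mec1, beside 14.4% of all features called higher and 5.5% called lower. The share of called genes in the family is therefore near the background. The median of all features was 0.11 in this contrast, and with each library centred on its median the differences were 0.69 for SPF1 and 0.68 for PMC1. With reads divided among gene bodies the differences were 0.87 and 0.80, with adjusted p-values of 0.21 and 0.25, and 0 of 6504 features were called.

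Whether the strain difference in HU departed from that at the other times was tested with 1 added term, again for the 8 genes not chosen on values. PMA1 had a difference of 1.20 (SE 0.25), an unadjusted p of 0.00299 in limma and an adjusted p of 0.39. None of the 8 genes and 0 of the 6504 features (0%) were called, and 468 features had an unadjusted p under 0.05. The additive strain term over all 4 times called 0 of the 8 genes, beside 0.277% of all features.

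The genes most like each pump were found by the root mean square difference of centred log2 values over the 8 libraries, outside a gene's own windows, as a description. For SPF1 they were YAR023C (0.15), TFC3 (0.19), which encodes a subunit of an RNA polymerase III factor, EAP1 (0.21), which encodes a repressor of cap-dependent translation, the mitotic exit kinase gene CDC15 (0.26) and the growth kinase gene TOR2 (0.27). PMC1 stood at rank 31 of this order, at 0.33. For PMC1 they were IFM1, OSH6, YOL022C, NOC3 and SGN1, at 0.13 to 0.15, and SPF1 stood at rank 212. TFC3 shows the shared shape: it was at 12.4, 32.4, 28.1 and 27.3 RPM in mec1 and 12.4, 6.27, 15.7 and 20.6 RPM in WT at G1, HU, R30 and R60. In WT HU, YAR023C was at 2.71 RPM, TFC3 and TOR2 at 6.27 RPM and CDC15 at 6.68 RPM. These lie below the 21.6 RPM of PMC1, which was 34.4 reads per window, so their shapes rest on few reads. Whether the features like SPF1 or PMC1 share windows with each other was not examined.

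The gene most like PMA1, looked up after its values were seen, was YCR024C-B (0.11), followed by PMP1 (0.12), YCR025C and SLM5 (0.12 each), of which YCR024C-B, YCR025C and SLM5 share windows with PMP1. PMP1 and PMP2 encode small proteolipids that regulate Pma1. PMP1 was at 599, 1056, 1091 and 894 RPM in mec1, against 593, 624, 1511 and 819 RPM in WT at G1, HU, R30 and R60. As for PMA1, mec1 was higher in HU and WT had its peak at R30. PMP2 was at 374, 413, 380 and 350 RPM in mec1, against 317, 394, 438 and 416 RPM in WT, a far narrower range in each strain. Over all 8 genes listed as partners of Pma1, limma called 0 for HU against G1, beside 9.09% of all features, and 1 for mec1 against WT in recovery, beside 19.9%. This was the activating kinase gene PTK2, which was higher in mec1 by 0.50 (adjusted p = 0.0397).

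**Figure D4:**
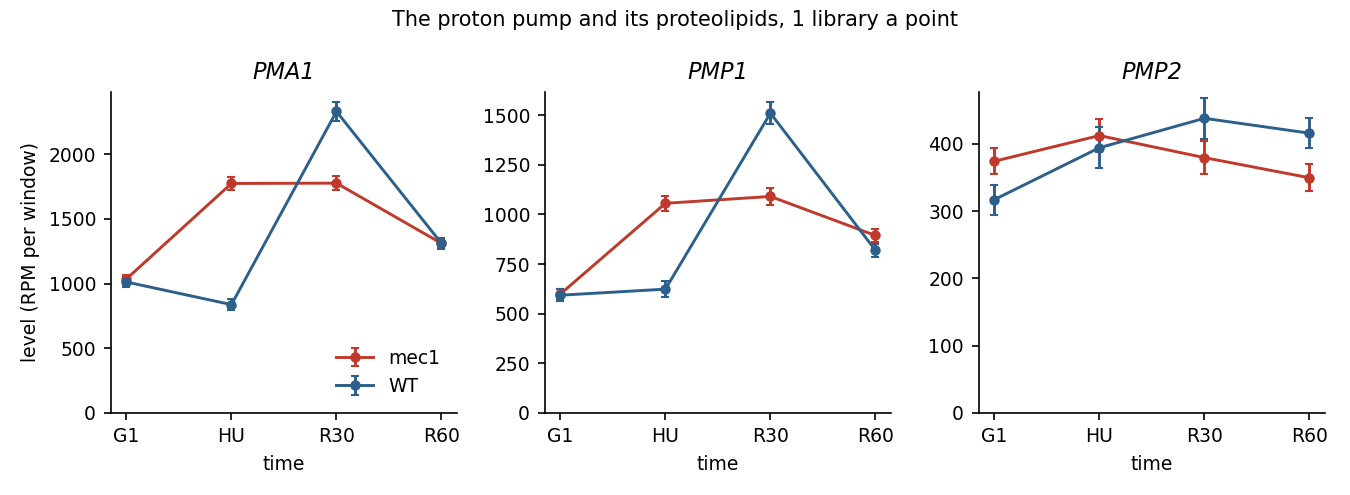
Level of PMA1 and of its proteolipid genes PMP1 and PMP2 (y axis, RPM per window, from 0) at the 4 times (x axis) in mec1 (red) and WT (blue), with 95% counting intervals. PMA1 and PMP1 share a WT peak at R30 (2331 and 1511 RPM), and PMP2 stays between 317 and 438 RPM.

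Genes of calcium signalling, the pathway in which Pmc1 and Pmr1 act, were read from a list of 17. Of these, 0 rose and 2 fell between G1 and HU over both strains, where limma called 4.57% of all features higher and 4.52% lower, and the list's median was −0.15 against −0.02 over all features. FIG1, which encodes a mating-induced regulator of calcium influx, fell by 2.80 (adjusted p = 0.000497). It was at 61.8 RPM in mec1 HU against 367 RPM in mec1 G1, and at 60.0 RPM in WT HU against 506 RPM in WT G1. CNA1, a catalytic subunit of calcineurin, fell by 0.58 (adjusted p = 0.0435). CRZ1 was at 28.6, 30.3, 31.7 and 35.6 RPM in mec1 and 28.3, 21.2, 29.6 and 27.4 RPM in WT, and was not called. RCN1, a regulator of calcineurin and itself a target of Crz1, was at 45.4, 38.1, 48.5 and 48.8 RPM in mec1 and 50.2, 26.4, 40.2 and 46.0 RPM in WT, also not called. In recovery 3 of the 17 were higher in mec1, CMK1, CMK2 and the vacuolar calcium channel gene YVC1, and 1 was lower, beside 14.4% and 5.5% of all features. CMP2, the other catalytic subunit of calcineurin, was the lower one, at −0.77 (SE 0.16, adjusted p = 0.0290).

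A list of 11 calcineurin targets includes PMC1 and PMR1. Between G1 and HU, 1 of them rose and 2 fell, beside 4.57% of all features called higher and 4.52% lower, with a median of −0.57. The riser was KAR2, the chaperone of the endoplasmic reticulum, and the others were the wall genes SCW10 and YPS1. In recovery, 4 of the 11 were higher in mec1 than in WT, PHO89, PMC1, KAR2 and CMK2, beside 14.4% of all features. PMC1 was chosen on the HU contrast, which can carry over into recovery, so nothing is read from this count. CMK2, a calmodulin-dependent kinase gene, was higher by 0.62 (adjusted p = 0.0249) and was at 72.2, 48.4, 50.5 and 67.2 RPM in mec1 against 97.3, 38.1, 32.2 and 43.9 RPM in WT. Its mec1 level in HU lay below that in G1, unlike that of PMC1.

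Genes of membrane and folding functions of the endoplasmic reticulum, where Spf1 resides, were read from a list of 20, with KAR2 again among them. Between G1 and HU, 9 of them rose over both strains and 0 fell, beside 4.57% of all features called higher and 4.52% lower. Their median was 0.58. ERO1, which drives disulphide formation, rose by 1.73 (SE 0.23, adjusted p = 0.0116). KAR2 rose by 1.44 (SE 0.19, adjusted p = 0.0115), and was at 350, 928, 486 and 464 RPM in mec1 against 281, 789, 323 and 231 RPM in WT. DER1, which acts in the disposal of misfolded proteins, rose by 1.18 (adjusted p = 0.0423) and SIL1, a nucleotide exchange factor of Kar2, by 1.16 (adjusted p = 0.0100). In recovery 7 of the 20 were higher in mec1 and 0 lower, beside 14.4% of all features called higher and 5.5% lower, led by ERO1 at 1.03 (adjusted p = 0.00942). Those that moved in HU include chaperones, an isomerase, oxidoreductases and disposal factors, and the insertase genes GET1 and GET2 were not called.

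The helper proteins of the flippases were read from a list of 11, of which limma called 0 in HU against G1 and 0 in recovery, beside 9.09% and 19.9% of all features. LEM3, the partner of Dnf1 and Dnf2, was at 65.7 to 83.2 RPM in mec1 and 57.3 to 73.5 RPM in WT. CDC50, the partner of Drs2, was at 31.0 to 43.4 RPM in mec1 and 33.9 to 43.0 RPM in WT, and YNR048W, the partner of Dnf3, at 32.3 to 38.9 RPM in mec1 and 31.2 to 37.4 RPM in WT. ANY1 (YMR010W), whose loss bypasses the need for Neo1, was at 89.4, 153, 152 and 132 RPM in mec1 against 91.5, 64.5, 106 and 120 RPM in WT. In HU it was the 1 gene of this list of 11 past 2-fold between the strains, beside 5.18% of all features higher in mec1. Nothing is read from this count.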

How the data were processed

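Total RNA was isolated with hot phenol, the library kit was Illumina's TruSeq Stranded mRNA and reads were aligned with BWA to sacCer3, per the labels' protocols and the submitters' processing notes. The header calls the deposited values log2 RPKM, but each deposited RPM value, multiplied by its windows, equals a whole number of steps of 1 size in each library, to within 0.0018 of a step, so they are read as linear RPM averaged over windows. The windows (gene body and 1000 bp on either side) predicted the deposited number exactly for 6326 of 6547 features (96.6%). No use of strand shows in the table.

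The 10 genes and all gene lists were chosen with earlier results of these data known. Values were used as log2(RPM + 1), and a feature needed 1 RPM in at least 2 libraries, which kept 6504, all 10 genes among them. Models were fitted with limma 3.58.1 in R 4.3.3, and reads were divided among gene bodies with scipy 1.17.1. The edgeR test planned for counts was not run, since the table holds no gene counts. Scripts were tested on simulated data. Genes named are the 10 members, their known relatives and partners, the leading members of each list and the 5 features most like SPF1 and PMC1.

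Table positions of the 10 genes lie −5 to 6 bases from R64, whose coordinates are printed; distances between genes are from the table. Of the 6 further P-type ATPase genes, 5 are in the table. Alternatives were other pseudocounts, scalings, filters and priors, left-out times and divided reads.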

Additional observations from a re-analysis of the deposited data

Results flagged for a closer look

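These results moved one way in the mec1 libraries and the opposite way in the WT libraries, with 1 library behind each value, and the difference between the strains was not tested. Between G1 and HU, the mec1 change minus the WT change was 2.50 for SPF1 (1.35 in mec1 and −1.15 in WT), 2.11 for PMC1 (0.76 in mec1 and −1.35 in WT) and 1.05 for PMA1 (0.78 in mec1 and −0.27 in WT). SPF1 and PMC1 were chosen for this pattern. Between HU and R30 the difference was −1.72 for SPF1 (−0.29 in mec1 and 1.43 in WT), which shares its HU libraries with the contrast of HU with G1. WT HU, which has the fewest reads of the 8 libraries, is the lowest for all 3 genes, and its part in these differences was not tested.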

How the results depend on the processing

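No paired analysis was possible because each strain and time has 1 library and the labels give no replicate numbers. Of the 60 differences of the 10 genes in HU against G1 and in mec1 against WT at each time, 0 moved beyond their counting interval with a pseudocount of 0.5 or 5, 4 with median centring, 4 with quantile normalization and 12 with reads divided among gene bodies. Of the 19 whose interval excluded 0, 1 turned its sign, with divided reads: PMR1 in HU against G1 in mec1, at 0.14. Of the 60 later differences (R30 against HU, R60 against R30 or G1), run with divided reads alone and added after seeing the data, 20 had an interval without 0 and 1 turned its sign, NEO1 in R60 against R30 in WT, at 0.11. With a 1.5-fold threshold, 3 genes (SPF1, PMC1 and PMA1) were past it in mec1 HU against G1 instead of 1, and 2 (SPF1 and PMC1) in mec1 against WT at R30 and 2 at R60, instead of 0. With median centring PMA1 was no longer past 2-fold in mec1 against WT in HU (0.95), which left 2 genes of 3. In recovery, 0 genes were called with divided reads instead of 2, and median centring added PMA2 as lower in mec1 (3 called, adjusted p = 0.0489). Over all features, that contrast had 939 higher and 358 lower calls, 593 and 653 with median centring, 629 and 438 with quantile normalization, and 859 calls in all without the mean-dependent prior. Calls in HU against G1 numbered 591, but 218 without the R30 libraries and 81 with divided reads. In R30 against HU they numbered 56, but 28 without the G1 libraries, 4 with divided reads and 3 without the mean-dependent prior. For mec1 against WT they numbered 18, but 669 without the G1 libraries, 7 without the R30 or the R60 libraries and 0 with divided reads, where 1123 features had an unadjusted p under 0.05. For the HU term they numbered 0, but 46 with divided reads and 5 without the G1 libraries. In these 4 contrasts the number of the 8 genes called was 0 under each setting run. The causes were not tested. The depth limits PMC1 most, with 34.4 reads per window in WT HU.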

Other observations

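Of the further P-type ATPase genes, the heavy metal pump gene PCA1 showed a strain difference in recovery. It was at 13.6, 15.4, 57.1 and 42.3 RPM in mec1 libraries at G1, HU, R30 and R60, against 21.2, 12.5, 15.9 and 11.1 RPM in WT libraries. Over R30 and R60 it was higher in mec1 by 1.81 (SE 0.14, limma adjusted p = 0.00648), beside 14.4% of all features called higher. The high values lie in both mec1 recovery libraries. CCC2, the copper pump of the Golgi, was at 37.0 to 47.6 RPM in mec1 and 32.2 to 43.1 RPM in WT, and YOR291W (YPK9), a vacuolar family member, at 27.3 to 35.0 RPM in mec1 and 30.0 to 35.1 RPM in WT. The sodium pump gene ENA1 was at 2.92, 13.8, 18.6 and 14.3 RPM in mec1 and 6.0, 11.9, 6.04 and 12.9 RPM in WT, while ENA5 was at 266 to 341 RPM in mec1 and 348 to 413 RPM in WT. ENA genes are near-identical copies, so the split of reads between them is uncertain.

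PHO89, a sodium-coupled phosphate transporter gene and calcineurin target, also had its high values in both mec1 recovery libraries. Whether PHO89 and PCA1 share windows, and so reads, was not examined. PHO89 was at 7.56, 11.2, 39.1 and 28.9 RPM in mec1 and 17.8, 4.70, 10.7 and 5.24 RPM in WT. It was higher in mec1 over R30 and R60 by 2.02 (SE 0.19, limma adjusted p = 0.00877). The vacuolar proton pump, which energises calcium uptake by exchange, is a multi-subunit enzyme outside the P-type family. Of the 16 genes listed for this type of enzyme, not all of them specific to the vacuole, 1 rose in HU against G1, beside 4.57% of all features. It was STV1, by 0.57 (limma adjusted p = 0.0473). In recovery 2 of the 16 were higher in mec1, beside 14.4%. These were VMA9 (0.76, adjusted p = 0.0169), at 110, 185, 174 and 161 RPM in mec1 and 105, 75.7, 93.9 and 102 RPM in WT, and VMA8 (0.61, adjusted p = 0.0185).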
